A study of Mus musculus with 3 samples.

Results

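The 1000 widest stretches of open chromatin on the autosomes of mouse oligodendrocyte-lineage cells after 1 day of differentiation are described here. They were chosen by the length of the called peak in the control day 1 library, with ties settled by peak height and then by position, and make up 1000 of its 114917 autosomal peaks and of 273342 peaks in the whole series. The study measured open chromatin by ATAC-seq, in which a transposase cuts and tags accessible DNA, in 3 libraries of 50000 cells, 1 per group. All cells came from C57BL/6 pups of postnatal days 4 to 7 and were immunopanned from the cortex as oligodendrocyte progenitor cells. The first group was wild type cells at day 0, which were grown in 20 ng/ml PDGF-AA, 20 ng/ml bFGF, 10 ng/ml CNTF and 1 ng/ml NT3 with 2% B-27 and 1% N2. The second group was wild type cells at day 1, after PDGF-AA, bFGF and NT3 had been removed and 60 nM triiodothyronine (T3) added. The third group was Seh1cKO cells, a conditional knockout of the nuclear pore gene Seh1l, at day 1 of the same treatment. The Cre line, the cells it acts in and the deleted part of Seh1l are not given in the sources used here, nor is the number of animals pooled in a library. Day 0 was read from a title that spells it DO.

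Open chromatin marks DNA that nucleosomes leave free, at promoters, enhancers and insulators. At active promoters rich in CG dinucleotides the free stretch can be broad and is flanked by positioned nucleosomes, and at enhancers it is usually narrower. Oligodendrocyte progenitors divide in response to PDGF and FGF, leave the cell cycle when these are withdrawn and T3 is given, and then open and express the genes of myelin.

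The promoters of 6 genes show what lies under the wide regions, each printed as the 250 bases upstream of its annotated start site, 5′ to 3′ on the strand of the gene (RefSeq, GRCm38.p6). Capitals mark the GC box GGGCGG, the CCAAT box CCAAT and the letters TATAAA on either strand. The 6 were chosen after their values were seen. From the gene lists examined came Sox11, a transcription factor of immature neural cells (chr12:27342719-27342968, minus strand), Jun, a subunit of the AP-1 factor (chr4:95052223-95052472, minus), and Dusp10, a phosphatase that switches off the stress kinases JNK and p38 (chr1:184034131-184034380, plus). From outside the lists came Cited2, a coactivator that binds CBP and p300 (chr10:17722978-17723227, plus). Pkp4, a junction protein of the plakophilin family (chr2:59160600-59160849, plus), and Ccdc148 (chr2:59160684-59160933, minus) are shown because they are transcribed away from each other from within a single wide region, so that the sequences overlap on opposite strands.
Sox11: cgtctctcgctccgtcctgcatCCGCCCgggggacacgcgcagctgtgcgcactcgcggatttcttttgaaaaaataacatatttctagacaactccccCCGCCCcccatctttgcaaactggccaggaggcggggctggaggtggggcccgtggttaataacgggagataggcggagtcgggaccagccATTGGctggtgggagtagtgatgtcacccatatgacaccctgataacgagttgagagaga
Jun: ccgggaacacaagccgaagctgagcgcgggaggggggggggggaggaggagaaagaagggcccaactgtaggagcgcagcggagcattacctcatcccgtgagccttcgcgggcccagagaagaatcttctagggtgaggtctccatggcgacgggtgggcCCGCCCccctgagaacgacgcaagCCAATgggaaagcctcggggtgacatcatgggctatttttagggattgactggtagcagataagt
Dusp10: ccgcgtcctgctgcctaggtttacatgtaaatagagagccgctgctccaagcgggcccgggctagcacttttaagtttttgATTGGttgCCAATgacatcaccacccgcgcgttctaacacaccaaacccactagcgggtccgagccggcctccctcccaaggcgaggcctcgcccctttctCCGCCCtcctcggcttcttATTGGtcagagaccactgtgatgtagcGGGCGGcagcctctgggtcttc
Cited2: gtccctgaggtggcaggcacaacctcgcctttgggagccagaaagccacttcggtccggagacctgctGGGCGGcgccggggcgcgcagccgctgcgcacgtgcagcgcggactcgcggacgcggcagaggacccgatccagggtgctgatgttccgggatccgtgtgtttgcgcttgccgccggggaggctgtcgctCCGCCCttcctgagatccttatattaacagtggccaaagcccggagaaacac
Pkp4: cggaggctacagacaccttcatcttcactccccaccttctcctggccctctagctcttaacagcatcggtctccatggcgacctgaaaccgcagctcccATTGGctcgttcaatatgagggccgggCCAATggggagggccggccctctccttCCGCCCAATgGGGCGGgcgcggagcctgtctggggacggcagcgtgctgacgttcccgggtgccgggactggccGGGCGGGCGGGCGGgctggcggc
Ccdc148: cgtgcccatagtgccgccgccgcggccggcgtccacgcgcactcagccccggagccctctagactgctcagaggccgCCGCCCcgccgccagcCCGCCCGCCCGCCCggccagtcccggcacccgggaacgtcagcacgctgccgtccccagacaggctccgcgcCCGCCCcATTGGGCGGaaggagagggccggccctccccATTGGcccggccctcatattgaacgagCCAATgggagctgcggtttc
The Sox11 stretch held 58.0% G and C, 2 GC boxes and 1 CCAAT box, and the Jun stretch 61.2%, 1 and 1. Dusp10 had 59.6% with 2 GC boxes and 3 CCAAT boxes, and Cited2 66.8% with 2 GC boxes and no CCAAT box. The shared Pkp4 and Ccdc148 region was the richest of these, at 68.4% and 75.2%, with 5 and 6 GC boxes and 3 CCAAT boxes on each gene's stretch. None of the 6 held the letters TATAAA.

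The libraries differed in depth, and this bears on every width and height that follows. The day 0 library held 23403600 fragments, the control day 1 library 18260883 and the Seh1cKO library 10845533, which is 59.4% of the control day 1 depth. Values of 3 libraries given together below are always in this order. Heights given below in fragments are not scaled to depth, so a lower count in the Seh1cKO library need not be a lower height once scaled. The lowest peak height called was 9, 8 and 6 fragments, and the median autosomal peak was 202, 216 and 305 bp wide. With 1 library per group there is no replicate spread, so groups were compared without tests. Brackets after a share hold its 95% Clopper-Pearson limits, which are exact and reflect counting error alone. Of the marker lists, 27 of 30 lineage regulators and 17 of 20 progenitor genes had a control day 1 peak at a gene end. Over all autosomal protein-coding genes, 13394 of 20665 had one. Of the lists for other cells, 13 of 15 astrocyte genes, 16 of 19 neuron genes, 8 of 20 microglia and macrophage genes and 10 of 20 endothelial and mural genes had one. The part of other cell types in the wide regions was not tested.

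The wide regions ran from 1178 to 4467 bp, with a median of 1311 bp (quartiles 1232 and 1441). Most lay close to the lower limit, as 190 were wider than 1500 bp, 15 wider than 2000 bp and 2 wider than 3000 bp. They held 3.82% of all bases covered by autosomal peaks. The last regions inside the limit, next to Ttc3 and at Cables1, were both 1178 bp wide with peak heights of 90 and 35 fragments, and the first outside, at Vps26c and at Rxrb and Slc39a7, were both 1177 bp with heights of 109 and 77.

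The wide regions were taller than peaks as a whole, and seldom the tallest. Peak height, the number of fragments over the summit, ran from 18 to 73546 with a median of 73 (quartiles 52 and 105), against 13 for all autosomal peaks. The median was 4.00 once scaled to depth, as fragments over the summit per 1000000 fragments of the library. Across all 114917 autosomal peaks width and height rose together (Spearman's rho 0.75), while within the 1000 regions, which span a narrow range of widths by their choice, rho was 0.04. These points share 1 library and rho is given as a description. Of the 1000 widest, 115 (11.5%) were also among the 1000 tallest peaks, which make up 0.870% of all autosomal peaks and whose median width was 843.5 bp. The next 1000 peaks by width had nearly the same height, a median of 70 fragments at 1102 bp. The plot of width against height shows the wide regions as a dense cloud at the right, with 2 of them standing far from the rest.

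**Figure D1:**
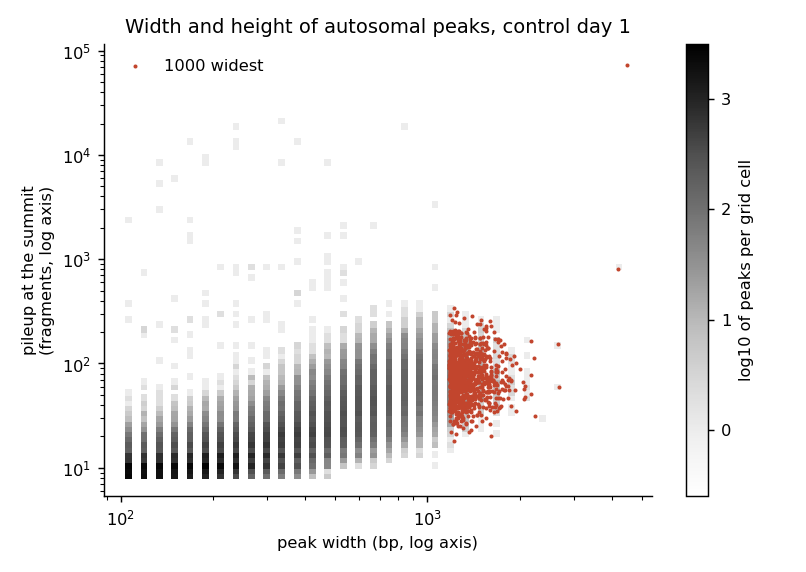
Width (bp, log axis) against height at the summit (fragments, log axis) for the autosomal peaks of the control day 1 library, with the number of peaks per grid cell in grey and the 1000 widest as red points. Height rises with width among the narrow peaks, the 1000 widest lie between 18 and 339 fragments apart from 2, and those 2, at 4467 and 4200 bp, reach 73546 and 803 fragments.

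These 2 regions lie over repeated or copied sequence rather than at a protein-coding gene. The widest (chr1:24611644-24616110, 4467 bp) covers the pseudogenes Gm10222 and Gm10925, the second of which has the synonym mt-Atp6, a mitochondrial gene name. Its height was 47758 fragments at day 0, 73546 in day 1 control cells and 15281 in Seh1cKO cells, and its width 4468, 4467 and 4462 bp. The next (chr17:39843084-39847283, 4200 bp) covers Rn18s-rs5, a pseudogene named for 18S ribosomal RNA, with heights of 1127, 803 and 676 fragments and widths of 4227, 4200 and 4191 bp. The width of both hardly differed between the libraries. Reads from such sequence can be placed at more than 1 copy, so their heights are uncertain.

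The other regions wider than 2000 bp lay mostly at single genes. Mdga2, which encodes a synaptic adhesion protein, had the widest region at the end of a protein-coding gene (chr12:67220246-67222930, 2685 bp). That region reached 2303 bp into the gene and 381 bp upstream, and its height was 50 fragments at day 0, 60 in day 1 control cells and 24 in Seh1cKO cells. A region of 2669 bp followed at the predicted genes Gm20783 and LOC108167694. Lypd1 and Nckap5 shared one of 2243 bp, Gpc6, a glypican, had one of 2232 bp, and Psat1, an enzyme of serine synthesis, one of 2181 bp. The remaining ones were at Crlf2, a cytokine receptor subunit (2174 bp), Cdh4, R-cadherin (2171 bp), Zbtb7c (2079 bp), the chaperone gene Hsp90ab1 (2068 bp), Pkp4 and Ccdc148 (2056 bp) and Tiparp, an ADP-ribosyltransferase (2002 bp). Trim67 (2085 bp) and Dab1, an adaptor of reelin signalling (2067 bp), held theirs inside the gene, over 1000 bp from its outer ends, and both regions contain an annotated start site of the gene. How far the width carried over differed between them. Crlf2 was nearly as wide in every library, at 2202, 2174 and 2167 bp, and so was the region of the predicted genes, at 2673, 2669 and 2625 bp. Psat1 was as wide at day 0 as at day 1 and narrower in Seh1cKO cells, at 2096, 2181 and 1364 bp, with heights of 76, 78 and 38. Hsp90ab1 was wider in the day 1 control library than in both others, at 1278, 2068 and 1334 bp. Its heights were 48, 46 and 30 fragments, but 2.05, 2.52 and 2.77 once scaled to depth, highest in Seh1cKO cells. The region of Lypd1 and Nckap5 measured 1609, 2243 and 855 bp and was broken into 2 peaks at day 0 and 4 in Seh1cKO cells.

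Most wide regions lay at gene ends. Of the 1000, 736 (73.6%, interval 70.8 to 76.3) lay within 1000 bp of an end of a protein-coding gene, against 14.4% of all autosomal peaks of that library. Another 184 lay inside a gene and 80 between genes. A longer peak reaches a window more easily, so the share was also taken by the summit alone. It was 67.3% for the widest regions, 63.7% for the next 1000 and 13.5% for all. The share rose with width along the whole list, from 10.4% of peaks ranked after 10000 through 46.8%, 62.1%, 67.5%, 71.0% and 74.0% to 85.0% of the 100 widest. The bar plot by width rank shows that this is a gradient and that nothing sets the 1000th peak apart from those that follow.

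**Figure D2:**
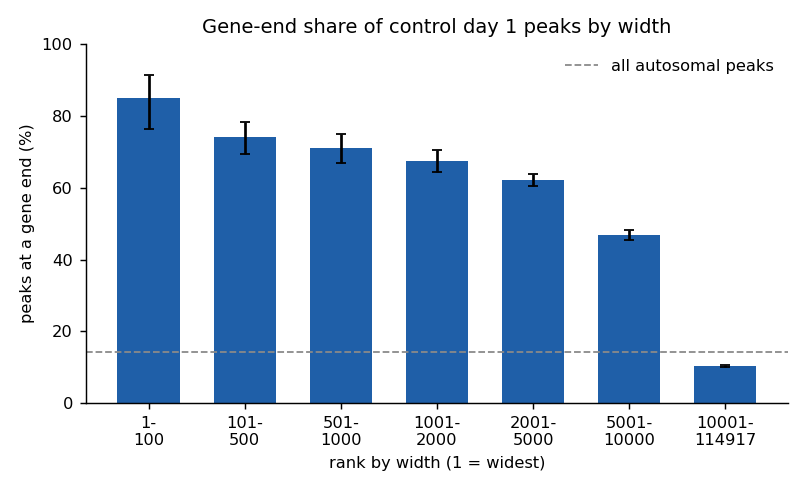
Share of autosomal control day 1 peaks within 1000 bp of an end of a protein-coding gene (%), by rank of width, with exact 95% intervals. The share falls from 85.0% in the 100 widest to 10.4% beyond rank 10000, and the dashed line marks 14.4% for all autosomal peaks.

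The gene ends were mainly starts. Annotated start sites with a known strand were at hand for 16457 of 20665 autosomal protein-coding genes (79.6%). Of the 736 regions at gene ends, 600 (81.5%) had a start site within 1000 bp. The share was 65.8% for all autosomal control day 1 peaks at gene ends. For the gene-end peaks that follow the wide regions up to rank 10000 it was 78.3%, only a little lower. Inside genes, 80 of the 184 wide regions (43.5%) had a start site within 1000 bp. This compares with 4.42% of all peaks inside genes and 20.9% of those that follow up to rank 10000. Over all 1000 regions a start site lay within 1000 bp of 680 (68.0%, against 11.4% of all peaks). It lay inside 649 (64.9%, against 57.4% of the next 1000 and 6.92% of all other peaks). Of those 649 regions, 99 held start sites of genes on opposite strands, like Pkp4 and Ccdc148. That is 15.3%, against 12% in the next 1000 and 7.45% in all others. The other 136 of the 736 regions at gene ends had no annotated start within 1000 bp.

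Around a single start site the regions extended further into the gene than away from it. In the 476 regions with 1 start site the median was 544 bp upstream and 783.5 bp downstream, and 319 of them (67.0%) were longer downstream. The summit sat close to the start, at a median of 58.5 bp upstream (quartiles 176 upstream and 52.3 downstream). In the 458 comparable regions of the next 1000 the medians were 460 and 634 bp, and again 67.0% were longer downstream. Individual regions departed from this. Jun was open over 1386 bp upstream and 276 bp downstream, Cited2 over 1275 and 664 bp, Sox11 over 916 and 839 bp, and Tiparp over 686 and 1315 bp. The plot of coverage around the start shows the extra width on both sides.

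**Figure D3:**
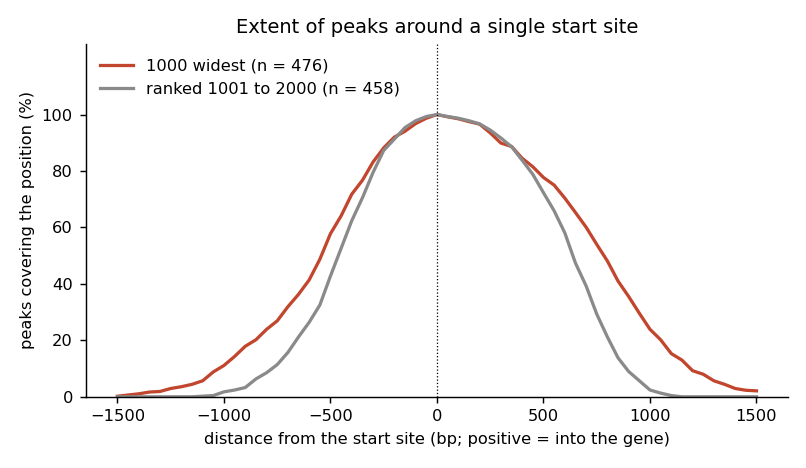
Share of peaks (%) that cover each distance (bp) from the start site, for regions holding a single start site, with positive distances inside the gene. The 476 of the 1000 widest (red) and the 458 of the next 1000 (grey) coincide near the start and part on both sides, with medians of 783.5 and 634 bp downstream.

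The promoters in wide regions were rich in CG dinucleotides. Over the 250 upstream bases of 750 genes whose start lay in a wide region, the median content of G and C was 65.2% and the median ratio of observed to expected CG was 0.82. The 8157 genes whose start lay in another control day 1 peak had 61.2% and 0.76, and the 7550 with a start in no peak 48.4% and 0.21. A ratio of at least 0.6 was found at 83.1%, 75.3% and 14.1% of these promoters. The promoters in the next 1000 regions by width (642 genes) stood beside the widest, at 64.4%, 0.80 and 84.4%, so these features do not set the 1000 apart.

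Short motifs were searched on both strands of the same 250 bases, and most did not follow this order. The GC box GGGCGG, which SP and KLF factors can bind, was in 71.2% of promoters of wide regions, 63.6% of those in other peaks, 21.2% of those in none and 44.5% of all, with 70.6% in the next 1000 regions. The letters TATAAA were in 5.07%, 5.17%, 20.6% and 12.2%, and the core ACAAT of SOX factors in 14.1%, 15.9%, 34.4% and 24.3%. For the AP-1 motif TGANTCA the shares were 2.40%, 3.33%, 9.52% and 6.13%. The ETS core CCGGAA was in 21.3%, 25.1%, 5.63% and 16.0%, the cyclic AMP response element TGACGTCA in 1.47%, 3.35%, 0.689% and 2.04%, and the palindromic NRF1 motif in 1.33%, 1.94%, 0.212% and 1.12%. These 3 were less frequent in wide regions than in other peaks and least frequent outside peaks. CCAAT was nearly level, at 35.5%, 38.2%, 34.1% and 36.2%. The element AGGTCA of nuclear receptors was in 8.80%, 8.91%, 16.4% and 12.3%, and CAGCTG in 10.4%, 11.3%, 12.3% and 11.7%. A match describes letters and not a bound factor.

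The wide regions lay at the ends of 899 autosomal protein-coding genes, which is 4.35% of 20665 and 6.71% of the 13394 with any control day 1 peak at an end. In 161 of the 736 regions at gene ends there were 2 or more genes. Of 17 gene lists, growth factor receptor and ERK feedback genes held the most, with 7 of 25 (28.0%). By the 1000 widest peaks of each other library the list had 5 of 25 at day 0 and 6 of 25 in Seh1cKO cells, so this is not particular to day 1 control cells. The ERK pathway carries signals from receptor tyrosine kinases, and several of its targets shut it down again. The receptors with a wide region were Igf1r, the receptor for insulin-like growth factor (1506 bp), and Ntrk3, the receptor for NT3 (1362 bp). The others encode inhibitors of kinase signalling. Dusp4 (1267 bp) and Dusp6 (1179 bp) are phosphatases of ERK, Dusp10 (1721 bp) acts mainly on JNK and p38, and Spry4 (1269 bp), whose region is shared with Arhgap26, and Spred1 (1203 bp) act upstream of ERK. Dusp4, Dusp6 and Spred1 are not covered by the rule for names and were added after their values were seen. The median width of the widest gene-end peak was 939 bp over this list and 687 bp over all genes with one. Pdgfra, the receptor for PDGF, also named after its values were seen, had a peak of 451 bp.

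Scaled height at 6 of these 7 genes stayed within 1.5 times that of day 1 control cells in both other libraries. Over all wide regions with a counterpart, 38.7% were at least 1.5 times lower at day 0 and 0.301% higher. In Seh1cKO cells these shares were 15.1% and 2.81%. The share within 1.5 times in both libraries was not taken over all regions, so the 6 of 7 is a description. The region of Dusp10 (chr1:184033371-184035091) had 178 fragments at day 0, 169 in day 1 control cells and 107 in Seh1cKO cells, or scaled heights of 7.61, 9.25 and 9.87. Igf1r (chr7:67950814-67952319) had 67, 72 and 42 fragments, and its region was wider at day 0 (1853 bp) and in Seh1cKO cells (1556 bp) than in the library that chose it. Spry4 had 76, 69 and 48 fragments over 1193, 1269 and 1060 bp. Ntrk3 (chr7:78578751-78580112) stood apart from these, with 48, 47 and 17 fragments and widths of 1129, 1362 and 354 bp, and was lowest and narrowest in Seh1cKO cells, also when scaled (2.05, 2.57 and 1.57).

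Among regulators of the lineage and among immediate early genes, 3 genes each had a wide region at a gene end. Regions inside a gene, such as the 2 in Sox6 given below, are not in these counts. The lineage regulators were Nkx2-2, a homeodomain factor needed for oligodendrocyte differentiation (1730 bp), Id4, an inhibitor of basic helix-loop-helix factors (1363 bp), and Sox9 (1273 bp), 3 of 30 genes (10.0%). Nkx2-2 (chr2:147193378-147195107) had heights of 49 fragments at day 0, 38 in day 1 control cells and 17 in Seh1cKO cells, and summed widths of 1439, 1730 and 700 bp. At Id4 (chr13:48260646-48262008) the heights were 69, 65 and 57, and the scaled height was higher in Seh1cKO cells (5.26) than in day 1 control cells (3.56). Sox9 had 100, 85 and 45 fragments, or scaled heights of 4.27, 4.65 and 4.15, with no library far from the others. The immediate early genes were Jun (1663 bp, heights 152, 172 and 88), Egr1 and Dusp1 (1182 bp, heights 59, 61 and 50), 3 of 24 (12.5%). These heights, like those of Nkx2-2 above, are fragments not scaled to depth and do not give the direction of a scaled difference. Egr1, a zinc finger factor induced within minutes by growth factors, had a wide region at each end of the gene, of 1548 bp and 1478 bp. The first had heights of 145, 204 and 92 and was as wide in Seh1cKO cells (1543 bp). The second had 115, 86 and 35 fragments and measured 422 bp in Seh1cKO cells, in 2 peaks.

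Other lists had few or no genes with a wide region at a gene end, and regions inside genes were not counted. Sox11 was the progenitor marker with a wide region at a gene end, 1 of 20 genes (5%). That region was 1756 bp wide with heights of 108, 106 and 57 fragments, not scaled to depth. Cspg4, of the same list, held a wide region inside the gene, given below. Slc1a2, the astrocyte glutamate transporter, and Sox9 were 2 of 15 astrocyte markers (13.3%). Hsp90ab1 and Polr2a, the largest subunit of RNA polymerase II (1516 bp), were 2 of 24 housekeeping genes (8.33%). Single regions were found for the cell cycle kinase Cdk2 (1427 bp, 1 of 30), the transport GTPase Ran (1384 bp, 1 of 30 nucleoporin and transport genes), the BAF subunit Dpf3 (1324 bp, 1 of 25 SWI/SNF genes) and the ribosomal protein gene Rps6 (1241 bp, 1 of 30). No wide region lay at an end of any of 28 myelin genes, of which 25 had a control day 1 peak at an end. There was none either at 19 thyroid hormone genes, of which 16 had a peak, 19 neuron markers (16 with a peak), 20 microglia and macrophage markers (8), 20 endothelial and mural markers (10), 27 Hox genes (5) or 30 other developmental transcription factors (20). Over all genes the share was itself low, at 4.35%, or 6.71% of those with a peak. Finding none in lists of this size is therefore not read as a difference. Some genes of these lists came near the limit, named after their values were seen. They were Rxrb (1177 bp, rank 1002) and Rxrg (1152 bp, rank 1143) of the thyroid hormone genes, and Cnp (1143 bp, rank 1202) and Mbp (1069 bp, rank 1760) of the myelin genes. The median widest gene-end peak was 588 bp over the thyroid hormone list and 457 bp over the myelin list. The bar plot of the lists sets these shares beside the 4.35% of all genes.

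**Figure D4:**
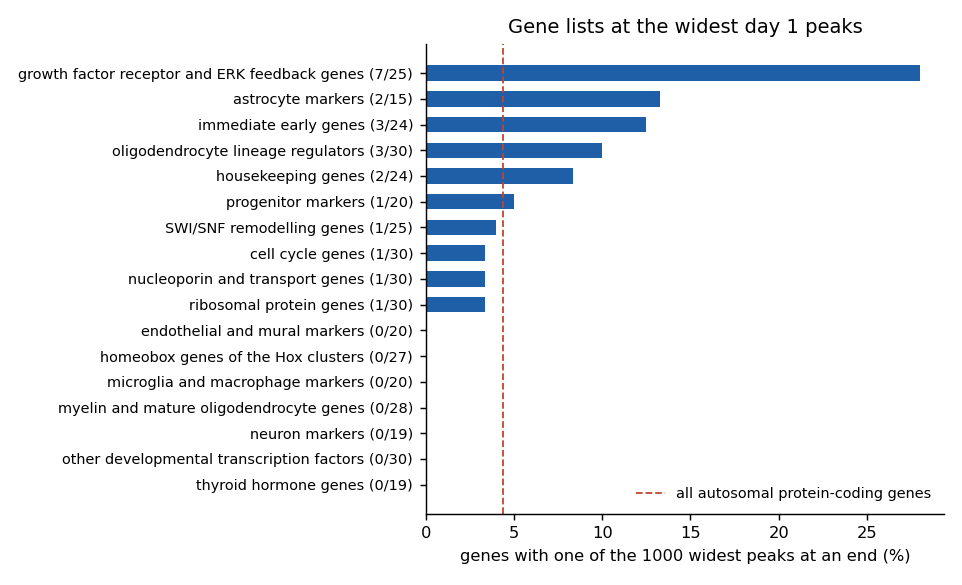
Share of the genes of each list (%) with one of the 1000 widest control day 1 peaks at an end, with the counts in brackets. Growth factor receptor and ERK feedback genes are at 28.0%, 7 lists are at 0, and the dashed line marks 4.35% for all autosomal protein-coding genes.

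The genes in the title of the series fell outside the limit. Seh1l had a gene-end peak of 1138 bp (rank 1227), Olig2, a basic helix-loop-helix factor that specifies the lineage, one of 1113 bp (rank 1415), and Brd7, a subunit of the PBAF remodelling complex, one of 772 bp (rank 7260). Their heights at day 0, in day 1 control cells and in Seh1cKO cells were 77, 70 and 47 fragments for Seh1l, 88, 84 and 55 for Olig2, and 35, 19 and 20 for Brd7. Scaled to depth they were 3.29, 3.83 and 4.33 for Seh1l, 3.76, 4.60 and 5.07 for Olig2, and 1.5, 1.04 and 1.84 for Brd7, so the Seh1cKO library was the highest at each.

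Nearly all wide regions were open at day 0 as well. A day 0 peak overlapped 998 of 1000 by at least 1 bp (99.8%, interval 99.3 to 100.0), against 39.9% of all autosomal control day 1 peaks and 99.8% of the next 1000 by width. At least 50% of the bases were covered in 977, against 32.5% of all peaks and 94.4% of the next 1000. Open width at day 0 was a little smaller. The overlapping day 0 peaks summed to a median of 1205.5 bp, and 270 regions were wider at day 0 than at day 1. In 268 regions (26.8%, against 1.81% of all peaks and 14.7% of the next 1000) the stretch was split into several day 0 peaks. Both exceptions lay far from any protein-coding gene. One, 302866 bp from Hdgfl1 (chr13:26464125-26465306), had 78 fragments in day 1 control cells and 11 in Seh1cKO cells, and the other, 664057 bp from Marcks, had 40 and 10.

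Scaled height was lower at day 0 at these regions, about as it was over all peaks with a day 0 counterpart. The median scaled height was 2.93 at day 0 and 4.00 at day 1. The log2 ratio of day 0 to day 1 had a median of −0.51 (quartiles −0.70 and −0.27) over the 998 regions with a day 0 peak. Over all 45835 autosomal peaks with a counterpart it was −0.39, so relative to those peaks the wide regions stood at −0.12. Peaks without a counterpart drop out of these medians and of the shares that follow. That keeps 39.9% of all peaks and 99.8% of the wide regions, so the sets compared are unlike. At least 1.5 times lower at day 0 were 386 regions (38.7%, against 36.3% of all and 44.3% of the next 1000 by width). At least 1.5 times higher were 3 (0.301%, against 5.52% and 0.902%). Starting instead from the 1000 widest day 0 peaks, the median log2 ratio of day 1 to day 0 was 0.50. The median width of those peaks was 1285 bp at day 0 and 1214 bp at day 1. Height was therefore greater in the day 1 library whichever library chose the regions, whereas width was greater in the library that chose them.

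Single regions departed further. In the gene Chid1 (chr7:141507680-141508890) the height was 67 fragments at day 0, 207 in day 1 control cells and 33 in Seh1cKO cells, a log2 ratio of −1.99 for day 0, in an intragenic region that was about as wide at day 0 (1257 bp) as at day 1 (1211 bp). Dnmt3a, a DNA methyltransferase gene, had 17, 48 and 25 fragments in an intragenic region, with 3 day 0 peaks of 482 bp in sum. Gm5544 had 24, 73 and 15, and a region 40965 bp from Tprg 30, 73 and 34. These regions are among the lowest at day 0, and none of them lies at a gene end. The highest at day 0 was a region 20159 bp from Efcab11, with 107, 41 and 45 fragments. It was followed by gene-end regions at Alg3 and Eef1akmt4 (49, 22 and 18), Aak1 (67, 32 and 33) and Usp6nl (63, 36 and 23), and a region 19982 bp from Kiz (66, 35 and 9). The control day 1 heights of these 5 regions, 22 to 41 fragments, are all below the median of 73. Cited2 had 56, 101 and 56 fragments over 1713, 1940 and 1549 bp. These counts are not scaled to depth, so the 56 fragments of day 0 and of Seh1cKO cells are not equal scaled heights. The Seh1cKO library had 59.4% of the control day 1 depth.

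The same regions were also nearly all called in Seh1cKO cells. A Seh1cKO peak overlapped 998 of 1000 (99.8%), against 31.5% of all autosomal control day 1 peaks and 99.2% of the next 1000 by width. At least 50% of the bases were covered in 889 (88.9%), against 24.0% of all and 88.9% of the next 1000. The exceptions were the gene end of Car10 (chr11:93097756-93099365, 1610 bp) and a region inside Ank, which had 20 and 34 fragments in day 1 control cells and 23 and 25 at day 0. Open width was smaller than in control cells, at a median of 1010 bp, and 47 regions were wider in Seh1cKO cells. In 247 regions (24.7%, against 1.16% of all and 12.1% of the next 1000) the stretch was split. The 1000 widest Seh1cKO peaks had a median of 1079 bp and were 1177.5 bp wide in day 1 control cells, so width was smaller in the Seh1cKO library whichever library chose the regions. Depth was 59.4% of that of day 1 control cells, and genotype and depth cannot be told apart here.

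Scaled height was close to that of control cells. The median was 3.69 against 4.00, and the log2 ratio of Seh1cKO to control day 1 had a median of −0.13 (quartiles −0.40 and 0.10). Over all 36204 peaks with a counterpart it was −0.12, which leaves −0.012 for the wide regions. Peaks without a counterpart drop out of these medians and of the shares that follow. That keeps 31.5% of all peaks and 99.8% of the wide regions, so the sets compared are unlike. At least 1.5 times lower were 151 regions (15.1%, against 23.2% of all peaks and 17.8% of the next 1000 by width). At least 1.5 times higher were 28 (2.81%, against 10.4% and 4.54%). Starting from the 1000 widest Seh1cKO peaks, the median log2 ratio of control day 1 to Seh1cKO was 0.10.

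Within the wide regions, those away from gene ends were lower in Seh1cKO cells more often than those at gene ends. The median log2 ratio was −0.08 at 736 gene-end regions and −0.33 at the 264 others, and a height at least 1.5 times lower was found at 67 (9.12%) and 84 (31.9%) of them. The difference was 22.8 percentage points (counting interval 16.8 to 29.1). Intragenic regions (−0.35, 58 lower) and those between genes (−0.29, 26 lower) were alike in this. The 184 regions with neither a gene end nor a start site within 1000 bp were at −0.37, with 67 lower (36.6%). Control day 1 height did not differ much between the classes, with medians of 75 fragments at gene ends and 71 elsewhere. At day 0 the ratio was −0.52 at gene ends and −0.48 elsewhere, and 39.7% and 35.9% were lower, a difference of −3.80 points (−10.6 to 3.29). Centred on all peaks it turned to 4.88 points (0.602 to 9.80), so its direction depends on the scaling. The split is not particular to the widest regions. Among the peaks that follow up to rank 10000, 8.27% of those at gene ends and 39.2% of the others were at least 1.5 times lower in Seh1cKO cells. All of these classes were compared between single libraries, and the control day 1 library enters both ratios. The box plots of width and height by position show the classes by library, without centring.

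**Figure D5:**
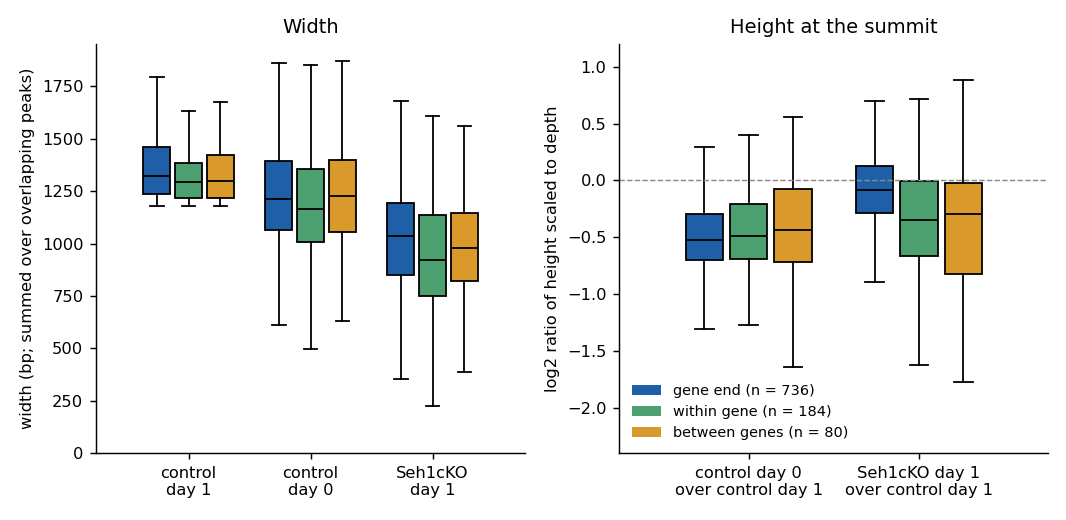
Summed width of overlapping peaks (bp, left) and log2 ratio of scaled height to control day 1 (right) for the 1000 widest control day 1 peaks, by position (736 at gene ends, 184 within genes, 80 between genes). Boxes span the quartiles with the median as a line, whiskers reach the last value within 1.5 times the box, and outliers are not drawn. In Seh1cKO cells the median ratio is −0.08 at gene ends, −0.35 within genes and −0.29 between genes, and at day 0 it is −0.52, −0.49 and −0.44.

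The lowest ratios in Seh1cKO cells that are given here were at regions away from gene ends. After the one far from Hdgfl1 (log2 ratio −2.07) came a region in Ctnna3, the gene of an alpha-catenin, near Lrrtm3 (chr10:64075886-64077104). It had 47 fragments at day 0, 58 in day 1 control cells and 9 in Seh1cKO cells, over 958, 1219 and 909 bp. Chid1 (−1.90), which was also among the lowest at day 0, followed, and further on a region 151159 bp from Trib2 with 66, 109 and 19 fragments. The next regions, in or near lineage genes, were chosen after their values were seen. One in Cspg4, which encodes the NG2 proteoglycan of progenitors, had 80, 98 and 24 fragments, and one 8598 bp from Sox8, a SOX factor of the lineage, had 60, 82 and 23. In Sox6 there were 2 wide regions, with 65, 54 and 20 fragments and with 76, 70 and 31. In each the Seh1cKO library was the lowest, also when scaled to depth, but the regions were picked among low ones and do not stand for the lineage genes. Id4 was higher and Sox9 nearly level in Seh1cKO cells, as given above.

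The highest ratios in Seh1cKO cells came from regions whose control heights were all below the median of 73 fragments. Tmem120b had 30 fragments at day 0, 24 in day 1 control cells and 30 in Seh1cKO cells (log2 ratio 1.07), over 652, 1302 and 521 bp. Dnaja2, a co-chaperone gene, had 34, 38 and 42 fragments (0.90). Efcab11 (0.89), a region 31030 bp from Arhgap5 over small nuclear RNA genes (60, 35 and 38 fragments, 0.87) and one 4120 bp from Zfp692 over transfer RNA genes (76, 48 and 52, 0.87) were the other 3. Of these 5, the last 3 were also higher at day 0 than in day 1 control cells.

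Being among the widest was only partly kept between libraries. Of the 1000 regions, 477 (47.7%) overlapped one of the 1000 widest day 0 peaks and 469 (46.9%) one of the 1000 widest Seh1cKO peaks. In both lists were 320 regions, in the day 0 list alone 157, in the Seh1cKO list alone 149 and in neither 374. The 320 were taller in day 1 control cells, with a median of 96.5 fragments, than the 374, with 59.5. Gene ends made up 75.6% of the 320, 69.4% of the 157, 85.2% of the 149 and 69.0% of the 374. The 1000 widest of each library were at gene ends in 69.4% at day 0, 73.6% in day 1 control cells and 75.1% in Seh1cKO cells.

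A few genes held more than 1 wide region. There were 19 such genes with 2 regions each, and the first by name were Arhgap26, Egr1, Elmo1, Galnt17 and Hdlbp. At Elmo1, an engulfment adaptor gene, the region at the gene end had 36, 47 and 15 fragments and the one inside the gene 27, 26 and 17. At Galnt17, the region at the gene end had 71, 70 and 24 fragments and the inner one 21, 22 and 17. Hdlbp had an inner region with 42, 38 and 19 fragments and one shared with Septin2 with 122, 140 and 87. The Seh1cKO scaled height was above that of day 1 control cells at the inner regions of Elmo1 and Galnt17, the shared Hdlbp region and the region that Arhgap26 shares with Spry4, and below it at the other 6. Elsewhere the wide regions were scattered, as only 14 had another within 10000 bp.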

How the data were processed

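MACS 2.1.2_dev was run on each library by itself with no control library, per the file headers, at a q cutoff of 0.05, with gaps of up to 50 bp joined, peaks of at least 100 bp kept and the local background taken over 10000 bp. The submitters' processing notes name Bowtie2, SAMtools, MACS2 and the build mm10. Their versions in those notes, and any shift of reads for the transposase, are not given in the sources used here. Joining of gaps sets where a wide stretch is split, and so its width. The deposited tables hold, for each peak, its width and summit position (bp), the pileup signal at the summit (fragments, called height here), a −log10 p-value, a −log10 q-value, and the ratio (fold) over the local background. All are the authors' own values per peak, per the file headers. Names of the −log10 columns were unreadable. The first matched a Poisson p-value recomputed from pileup and fold within 0.01 for 100% of the peaks checked.

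Scaled height was the pileup per 1000000 fragments counted in the header of the library, and where several peaks overlapped a region the highest was used and widths were summed. Positions are 1-based. A gene end is within 1000 bp of either end of a protein-coding gene in RefSeq GRCm38.p6, whose table has no strand. Start sites and promoter sequences came from a RefSeq table of the same build with strand. No genome sequence was used here, so no sequence is given away from promoters. Libraries were compared by counts and medians, with no test, since each group has 1. Overlap and ranking were tested on simulated data. Python 3.11.15, numpy 2.4.6, pandas 2.3.3, scipy 1.17.1 and matplotlib 3.10.9 were used.

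The regions and the 17 gene lists were chosen with earlier results of these data known. Named genes were the 15 widest regions, the 5 widest away from gene ends, the 5 lowest and highest in each other library, regions with no counterpart, the first 5 by name of the genes with 2 regions, up to 4 genes per list, the genes of the series title and the regions next to the width limit. Names outside this rule are marked as chosen later. One region that the rule takes is not reported here.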

Additional observations from a re-analysis of the deposited data

How the results depend on the processing

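Of 56 alternative settings over 11 results, 27 stayed within the counting interval of the main value, 28 moved beyond it and 1 reversed, and 14 of the 56 were added after seeing the data. The gene-end share was 70.0% with a window of 500 bp, 76.7% with 2000 bp, 70.6% for the 2000 widest peaks, 67.3% by the summit and 79.4% with genes of every kind. With at least 50% of the bases covered, 97.7% of regions were found at day 0 and 88.9% in Seh1cKO cells, and with reciprocal coverage 89.1% and 77.4%. With a −log10 q of 10 or more they were 98.7% and 87.0%, at 5 the Seh1cKO share was 98.0%, and for the 500 widest the day 0 share was 100%. Median width was 1136 and 949 bp for the widest overlapping peak alone, 1334 and 1093 bp for the 500 widest, 1090 and 916 bp for the 2000 widest, and 1050 bp in Seh1cKO cells from the first to the last base. The log2 ratio was −0.12 and −0.012 when centred on all peaks, and −0.58 and −0.21 with the mean of the overlapping peaks. The share among the widest of the other library was 43.6% and 41.2% for the 500 widest and 52.1% and 50.5% for the 2000 widest. The difference between regions elsewhere and at gene ends at day 0 reversed from −3.80 to 4.88 points when centred on all peaks, and the cause was not tested. In Seh1cKO cells it stayed between 17.9 and 27.1 points. No paired analysis was possible because each group has 1 library. The libraries differ in depth, and its part in the smaller Seh1cKO width was not tested.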

Other observations

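Genes for small RNAs lay under the wide regions more often than under peaks as a whole, counted by overlap of at least 1 bp with the RefSeq annotation. Of the 1000 regions 12 (1.2%) overlapped a microRNA gene, against 0.0844% of all autosomal control day 1 peaks, 10 (1.00%) a transfer RNA gene, against 0.0992%, and 8 (0.800%) a small nuclear RNA gene, against 0.0365%. A longer peak overlaps more genes, and these shares are not corrected for length. For long non-coding RNA genes the shares were 16.4% and 10.9%. Examples, chosen after their values were seen, were Rmrp, the RNA of the RNase MRP complex (1412 bp, at the end of Ccdc107), the U12 small nuclear RNA gene Rnu12 (1181 bp, at the end of Poldip3) and Rnu2-10, near Arl4d (1434 bp). At Rnu12 the log2 ratio of scaled height to control day 1 was 0.21 at day 0 and 0.45 in Seh1cKO cells, and at Rnu2-10 it was −0.11 and −0.30.

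The X chromosome, left out of the selection, held 24 control day 1 peaks as wide as the 1000 regions, with 18 at day 0 and 11 in Seh1cKO cells, and the Y chromosome held 0 in each. Among autosomes the number of wide regions per 100 protein-coding genes ran from 2.66 on chromosome 7 to 7.83 on chromosome 3. In 117 regions the Seh1cKO width was at least 95% of the control day 1 width, and in 89 the day 0 width was as well. A height at least 1.5 times lower in both other libraries was found at 78 regions. Of these, 37 lay at gene ends, against 736 of all 1000 regions. The share over all peaks was not taken, so 78 cannot be called many or few. Both ratios share the control day 1 library, so this count is given as a description.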
